A study of Homo sapiens with 6 samples.

Results

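CORO1A is a protein-coding gene on chromosome 16 whose annotated start lies 13122 bases downstream of a copy of SVA_D, one subfamily of the hominid SVA retrotransposons. CORO1A, its 5 neighbours MAPK3, GDPD3, YPEL3, TBX6 and PPP4C, and that single SVA_D copy are described here, out of 19986 genes and 1546 SVA_D copies in the deposited tables. CORO1A was chosen because it stood out in an earlier comparison of these same libraries with and without the guide, so its own difference between those groups is given as a description with no test. The neighbours and the copy were taken by position. All 6 genes passed the filter on low counts and the copy did not.

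The RNA came from HEK293T, a transformed human embryonic kidney line. Per the labels, 3 libraries came from cells transfected with dCas9-VP64, rtTA and an SVA_D guide RNA (labelled CRISPRa), and 3 from cells that received dCas9-VP64 and rtTA without a guide (labelled WT). All 6 titles name SunTag, and nothing in the labels says how many clones or cultures were used, so the spread behind each p-value is that of these libraries and may be technical. CRISPR activation uses a Cas9 without cutting activity to bring an activator, here VP64, to the sites its guide matches. A guide against a repeat subfamily has many such sites, and whether genes beside them respond is the question this locus bears on.

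CORO1A encodes coronin 1A, an actin-binding protein found mainly in blood cells, where it takes part in actin turnover with the Arp2/3 complex and in lymphocyte survival and migration. Loss of the gene causes a human immune deficiency. MAPK3 encodes the kinase ERK1, which acts at the end of the RAF, MEK and ERK relay. GDPD3 encodes a phosphodiesterase that acts on lysophospholipids, and YPEL3 a small protein linked to growth arrest. TBX6 encodes a T-box transcription factor of the paraxial mesoderm, and PPP4C the catalytic subunit of protein phosphatase 4. SVA_D copies are usually silenced by DNA methylation and by zinc finger proteins that recruit TRIM28.

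Coordinates are those of the deposited tables on GRCh38. CORO1A (ENSG00000102879) runs from 30182827 to 30189076 on the plus strand. The SVA_D copy, SVA_D_dup1165, runs from 30168454 to 30169705, is 1252 bases long, and lies upstream of CORO1A in the same direction. GENCODE release 29 places no gene over the copy and none between it and CORO1A. On its other side the nearest annotated start of the 5 neighbours is that of MAPK3 (30114105 to 30123506, minus strand), 44948 bases away. GDPD3 (30104810 to 30113537), YPEL3 (30092314 to 30096915) and TBX6 (30085793 to 30091887) follow on the minus strand, with starts 54917, 71539 and 76567 bases from the copy. PPP4C (30075978 to 30085376) is on the plus strand, with its start 92476 bases away. The antisense non-coding gene AC012645.3 lies inside CORO1A from 30183505 to 30184957. The counts were made without strand, so its reads cannot be told apart from those of CORO1A.

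GENCODE lists 17 CORO1A transcripts, and only CORO1A-205 and CORO1A-202 start before position 30183422. RefSeq (GRCh38.p14) places the start site at 30183602, which is 13897 bases from the copy. The stretch just before the first exon of CORO1A-201, chr16:30183352-30183421 on the plus strand, is shown because it precedes the start of a protein-coding transcript of the gene the results turn on. It lies 13647 bases from the copy, inside the gene span given above and past the first annotated start, in no annotated CORO1A exon. Capitals mark a GC box (GGGCGG) and an ETS core (GAGGAA).

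CORO1A-201 upstream: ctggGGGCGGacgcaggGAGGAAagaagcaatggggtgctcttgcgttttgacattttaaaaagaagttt

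Both strands of the 250 bases before each RefSeq start were searched, and overlapping matches were counted. CORO1A held 3 matches to GGGCGG, 1 to GAGGAA, and 0 to TATAAA and CCAAT. Of 35116 promoters in the table, 42.6% held GGGCGG, 23.6% GAGGAA, 10.7% TATAAA and 32.0% CCAAT. MAPK3 held 6 matches to GGGCGG and YPEL3 held 3, while TBX6 and PPP4C held 0. A match is a description of the letters in this window.

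Libraries held 16557854 to 22651168 gene counts. Replicate 3 of both groups stands apart: its alignment names follow another scheme in the file headers, and it is called batch B here, with replicates 1 and 2 as batch A. Values are therefore given within each batch as well. Of the 7 HEK293 markers listed (PAX2, LHX1, VIM, NEFL, NEFM, KRT8 and KRT18) all 7 passed the count filter. Of 21 leukocyte markers 5 passed, among them ITGB2 and VAV1. The T cell marker CD3D had 0 counts in every library, and the pan-leukocyte marker PTPRC and the B cell marker MS4A1 had 0 in every guide library.

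CORO1A was at 2.59, 3.80 and 9.36 CPM in guide replicates 1, 2 and 3 and at 1.34, 2.32 and 3.25 CPM without the guide, where CPM is counts scaled to 1e+06 by TMM library sizes. The underlying counts were 53, 61 and 212 with the guide and 28, 38 and 76 without it. Each guide library exceeded its same-numbered library without the guide. The 2 groups overlapped, because guide replicate 1 lay below no-guide replicate 3. Within batch A both guide libraries were above both libraries without it.

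Guide libraries averaged 5.25 ± 3.61 CPM, and the libraries without the guide averaged 2.30 ± 0.959 CPM (SD, n = 3). The log2 fold change of the edgeR fit was 1.19 ± 0.56 (SE), and it was 1.13 ± 0.25 with the batch in the model. Within batch A alone the value was 0.82, and within batch B alone 1.49. The ratio of summed counts, scaled for library size, was 1.77 in batch A (114 against 66 counts, exact 95% interval 1.29 to 2.43) and 2.88 in batch B (212 against 76, interval 2.20 to 3.79). These intervals cover counting error only and are no test of CORO1A, which was chosen from this contrast. Whether the ratio differs between batches was not tested. Without guide replicate 3 the log2 fold change was 0.46, a fit in which batch B is left with its no-guide library only.

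Of 13007 tested genes, 11 had a larger log2 fold change than CORO1A. In batch A 82 of 12739 genes had a larger value, and in batch B 73 of 13660, each filtered anew within its batch. Among genes also tested in the full fit it was 81 of 12731 in batch A and 27 of 12972 in batch B. CORO1A was chosen from the guide contrast of these libraries, so its ranks restate that choice and are no test. As a background, all 3 same-numbered pairs were higher with the guide for 12.6% of tested genes and lower for 10.4%. The groups were fully separated for few tested genes, 1.69% with the guide libraries on top and 1.15% with them at the bottom, and none of the 6 members was among them. No gene passed an edgeR adjusted p of 0.05 (0.0% higher, 0.0% lower). At an unadjusted p under 0.05 there were 19 genes on the higher side and 4 on the lower. With the batch in the model these counts were 347 and 140, and in batch A alone 383 and 342, with 0 passing adjustment in either fit. DESeq2 and limma-voom also called 0.

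**Figure D1:**
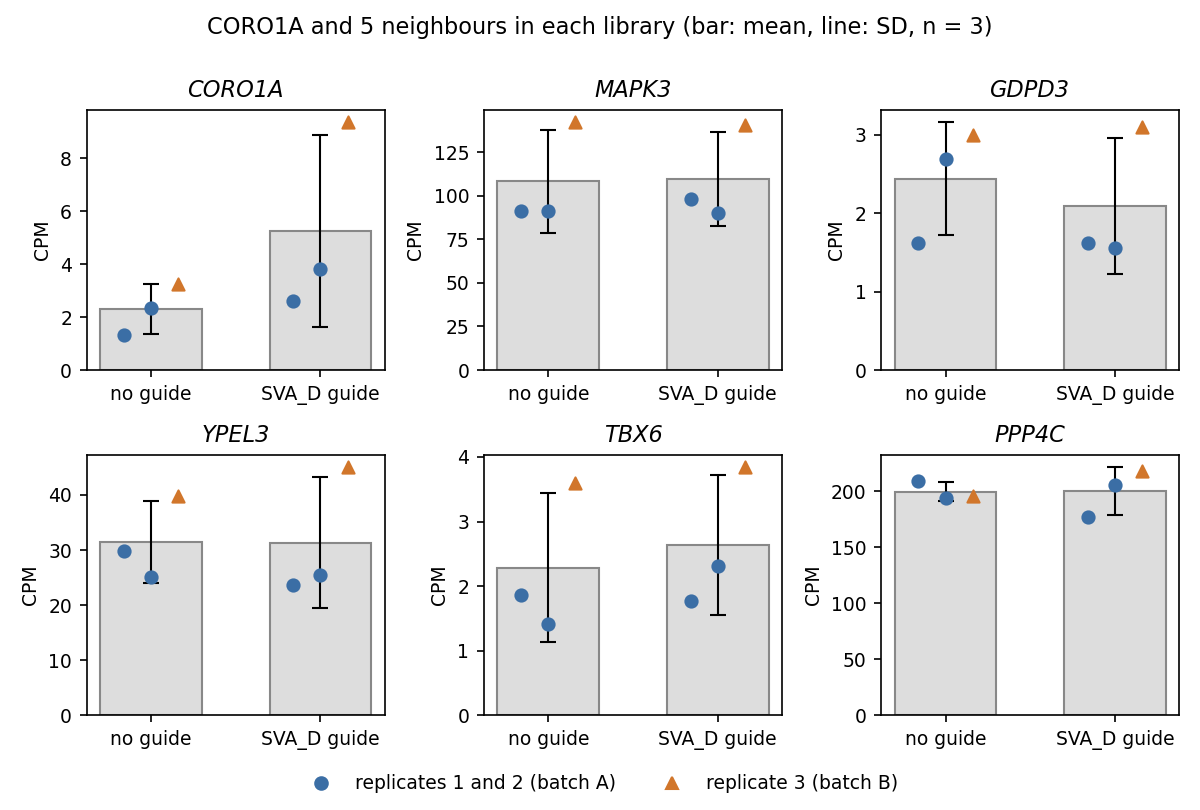
CPM of CORO1A and its 5 neighbours in each library (y axis, linear and separate for each gene), without and with the SVA_D guide (x axis). Bars are means and lines SD of 3 libraries, circles are replicates 1 and 2, and triangles replicate 3. CORO1A reaches 9.36 CPM in guide replicate 3, and in all panels but PPP4C the triangle is the highest point of its group.

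The SVA_D copy beside CORO1A was close to the detection limit. It had 0, 3 and 5 counts in guide replicates 1, 2 and 3 and 0 counts in each of the 3 libraries without the guide. Thus 2 of the 6 libraries held any count, both with the guide, and guide replicate 1 did not differ from the libraries without it. The sum over the 3 guide libraries was 8 counts, too few for a fold against the libraries at 0. A floor of 3 counts per library corresponds to 0.128 to 0.187 CPM per library, and the copy was at 0.187 CPM in guide replicate 2 and 0.221 CPM in guide replicate 3.

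The copy was left out by the count filter, under which 11 of 63 tested copies (17.5%) were higher and 0 (0.0%) lower. With no filter, edgeR tested 1060 copies, called 12 higher and gave SVA_D_dup1165 an adjusted p of 0.490, so its difference did not pass. Among all 1546 copies, 729 had 0 counts without the guide and 243 of these had at least 1 count with it. Only 10 of them had 8 or more counts with the guide, SVA_D_dup1165 included, and 0 copies had 8 or more without the guide and 0 with it. The value of 8 was set by this copy after its counts were seen. A read pair with several alignments adds a count to every copy it hits, so other SVA copies may be the source of these reads. The other SVA_D copy within 500 kb of the CORO1A start, SVA_D_dup1166 (30215832 to 30216134, 303 bases), lies 33005 bases downstream and had 0 counts in all 6 libraries.

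MAPK3, the neighbour nearest to the copy, was at 98.2, 90.0 and 140.7 CPM with the guide and 91.1, 91.5 and 142.3 CPM without it. The 2 groups overlapped almost fully, and the replicate 3 libraries were the high ones in both. The log2 fold change was 0.018 ± 0.24 (SE), or 0.024 ± 0.074 with the batch in the model, and it did not pass in either fit (edgeR adjusted p = 1.0 and 0.997). By counts the guide over no guide ratio of MAPK3 was 1.04 in batch A (interval 0.988 to 1.09) and 0.989 in batch B (interval 0.942 to 1.04).

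PPP4C was the most abundant member, at 177, 205 and 218 CPM with the guide and 209, 194 and 196 CPM without it. Guide libraries were both the lowest and the highest of the 6. Its log2 fold change was 0.0038 ± 0.12 (SE), -0.079 within batch A and 0.15 within batch B, and it did not pass (edgeR adjusted p = 1.0).

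YPEL3 was at 23.6, 25.4 and 45 CPM with the guide and 29.8, 25.1 and 39.7 CPM without it. The replicate 3 libraries were the 2 highest, and the guide library was the lower one in replicate 1 and the higher one in replicates 2 and 3. Its log2 fold change was -0.0085 ± 0.29 (SE), -0.17 within batch A and 0.17 within batch B.

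GDPD3 and TBX6 were as scarce as CORO1A without the guide, with 23 to 87 counts per library. GDPD3 was at 1.62, 1.56 and 3.09 CPM with the guide and 1.62, 2.69 and 3.0 CPM without it, a log2 fold change of -0.22 ± 0.41 (SE). TBX6 was at 1.76, 2.30 and 3.84 CPM with the guide and 1.86, 1.41 and 3.60 CPM without it, a log2 fold change of 0.20 ± 0.47 (SE). The groups overlapped for both genes. At this depth the counting intervals of the batch B ratios were wide, 0.730 to 1.46 for GDPD3 and 0.782 to 1.46 for TBX6.

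None of the 5 neighbours passed with edgeR, where the background of called genes is 0.0%, and their adjusted p was at least 0.997 also with the batch in the model. Their summed level averaged 346 ± 57.6 CPM in guide libraries and 344 ± 36.1 CPM in the others (SD, n = 3, two-sided exact permutation p = 1.0, smallest possible p 0.1). The largest distance from 0 among their log2 fold changes was that of GDPD3, and the median of the 5 was 0.0038.

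Counting by position, 49 other protein-coding genes start within 500 kb of CORO1A and 37 of them were tested. Their median log2 fold change was 0.057, with 29 of 37 above 0, beside a median of 0.0025 and 6626 of 13007 above 0 over all tested genes. Within batch A the median was 0.044 (23 of 37 above 0), within batch B 0.14 (31 of 38 above 0), and without guide replicate 3 it was -0.027. None of the 37 genes passed. The gene body of ALDOA, a glycolytic enzyme gene, lies almost wholly inside the span of ENSG00000285043, and pairs that overlap 2 genes were not counted. ALDOA therefore had 2 counts in all 6 libraries together and was not tested.

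On the higher side the smallest p-values were those of ZNF48, a zinc finger gene (39.5 ± 4.56 against 33.8 ± 3.06 CPM), ENSG00000285043 (3.45 ± 0.151 against 2.66 ± 0.512 CPM), ASPHD1, CD2BP2 and ZNF764 (SD, n = 3). Their log2 fold changes were 0.22, 0.38, 0.28, 0.11 and 0.13. On the lower side they were NPIPB13 at -0.36, GDPD3, MYL11 at -0.20, ZNF689 at -0.029 and ZNF768 at -0.020. MVP, the major vault protein gene, had the highest value of the 37, 0.72 ± 0.81 (SE), with means of 6.14 ± 5.93 CPM in guide libraries and 3.71 ± 3.21 CPM in the others (SD, n = 3). The replicate 3 library of each group was the high one for MVP. BOLA2B and SLX1A, the genes that start next downstream of CORO1A, had 0.078 ± 0.36 and 0.013 ± 0.33 (SE). They belong to duplicated families, so pairs that align to both copies are lost from their counts.

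Per kilobase of gene body, the span over which pairs were counted, the levels without the guide were 21.2 ± 0.883 CPM for PPP4C, 11.5 ± 3.13 for MAPK3 and 6.85 ± 1.62 for YPEL3 (SD, n = 3). TBX6 at 0.375 ± 0.190, CORO1A at 0.369 ± 0.153 and GDPD3 at 0.279 ± 0.0827 CPM per kilobase did not differ beyond their spread. With the guide CORO1A was at 0.840 ± 0.577 CPM per kilobase, below YPEL3 at 6.81 ± 2.58. TBX6 was then at 0.432 ± 0.177 and GDPD3 at 0.239 ± 0.0996, and the TBX6 mean lay within the SD of CORO1A. Of the tested genes, 38.1% had a lower level per kilobase than CORO1A without the guide, and 12.5% had a lower CPM.

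The difference between batches was not the contrast from which CORO1A was chosen, and it was tested with the group in the model. For CORO1A both contrasts share guide replicate 3, its highest library, so its batch p-value is not free of that choice. CORO1A was 2.42 times as high in batch B as in batch A (log2 1.28 ± 0.24 SE, edgeR adjusted p = 0.00067), at 6.31 CPM over the 2 batch B libraries and 2.51 CPM over the 4 of batch A. TBX6 was 2.03 times as high (adjusted p = 0.0021), GDPD3 1.65 times (0.030), YPEL3 1.63 times (0.00011) and MAPK3 1.53 times (2.4e-05). PPP4C did not pass, with a log2 difference of 0.077 ± 0.090 (SE, edgeR adjusted p = 0.49). Thus 5 of 6 members rose in batch B, where 27.1% of all tested genes were higher and 26.6% lower. Of the 37 tested genes within 500 kb of CORO1A, which include the 5 neighbours, 15 were higher and 4 lower. Among the markers, the summed leukocyte level was 17.2 to 25.3 CPM in guide libraries and 16.9 to 20.9 CPM in the others, highest in the batch B library of each group. The summed level of 7 fibroblast markers was 21.8 and 22.8 CPM in the batch B libraries and 2.10 to 4.11 CPM in batch A. Only 1 of the 7, COL1A1, passed the count filter, and it made up most of the batch B sum. It had 373 and 345 counts in batch B and 38 to 55 in batch A. THY1 had 0 counts in both batch B libraries. The summed level of the 7 HEK293 markers, most of it VIM, was 1269 and 1309 CPM in batch B and 1986 to 2424 CPM in batch A. This sum followed VIM, with 15441 and 17365 counts in batch B and 26655 to 42779 in batch A. NEFM went the other way, with 8264 and 8275 counts in batch B and 3148 to 4220 in batch A. PAX2, LHX1, NEFL and KRT8 also had more counts in both batch B libraries than in any of batch A, and KRT18 did not. The part of these markers in the CORO1A level was not tested.

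**Figure D2:**
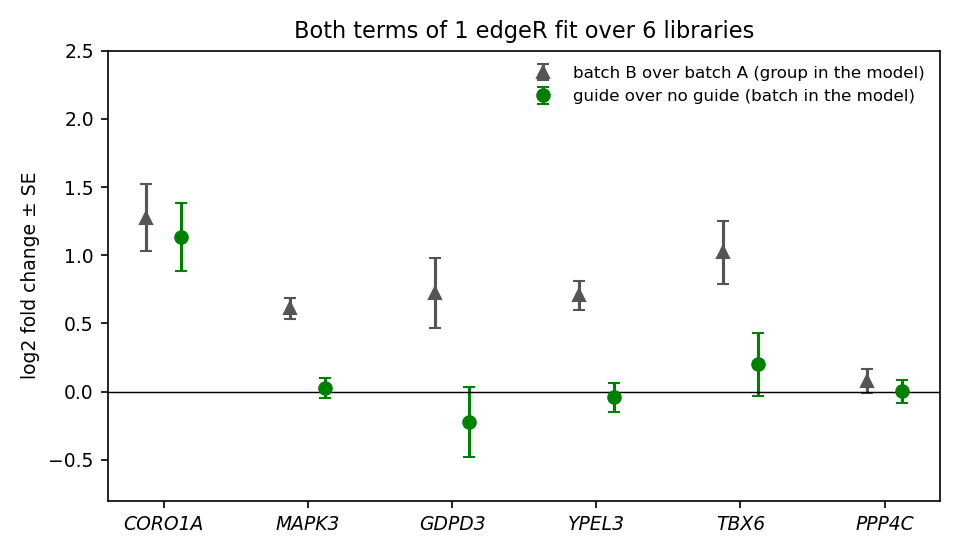
Log2 fold change with its SE (y axis) for the 6 members (x axis) from 1 edgeR fit with 2 terms: batch B over batch A (triangles) and guide over no guide (circles). CORO1A is the member with both terms above 1 (1.28 and 1.13), the circles of the other 5 lie between -0.22 and 0.20, and the guide term of CORO1A is a description of the contrast it was chosen from.

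Without the guide alone, CORO1A was 1.84 times as high in batch B as in batch A by counts (76 against 66, exact 95% interval 1.31 to 2.60). With the guide it was 3.0 times as high (212 against 114, interval 2.37 to 3.80). Whether these ratios differ was not tested.

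Genes placed like CORO1A were looked at as a group. Another 328 tested genes start 5 to 20 kb from the nearest SVA_D copy, and their median log2 fold change was 0.022, with 186 above 0 and 1 above the value of CORO1A. That gene was OR6J1, an olfactory receptor gene, at 1.47 ± 0.49 (SE), with 26, 14 and 59 counts in guide replicates 1, 2 and 3 and 11, 9 and 15 in the libraries without the guide. For 103 of them the copy lies upstream and in the same direction, as it does for CORO1A. Their median was 0.029, with 63 above 0 and values from -0.50 to 0.59, beside 1.19 for CORO1A, which was itself chosen for that value. The highest of them were GIPR, a gut hormone receptor gene, at 0.59 ± 1.0, CYP2S1 at 0.46 ± 0.58 and PHF24 at 0.44 ± 0.34 (SE). In batch A 6 of 323 genes of the whole set had a larger value than CORO1A, and in batch B 1 of 328. Among those with the copy upstream it was 1 of 101 in batch A (ACE at 0.82) and 0 of 103 in batch B. In batch A 9 of these 101 genes and 18 of the 323 were on the higher side at an unadjusted edgeR p under 0.05. Over all tested genes other than CORO1A it was 382 of 12731, and 0 passed adjustment. In the fit of all 6 libraries it was 0 of the 103 and 2 of the 328, beside 19 of 13006. None of the 328 genes passed, and the split by direction was added after the data were seen.

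**Figure D3:**
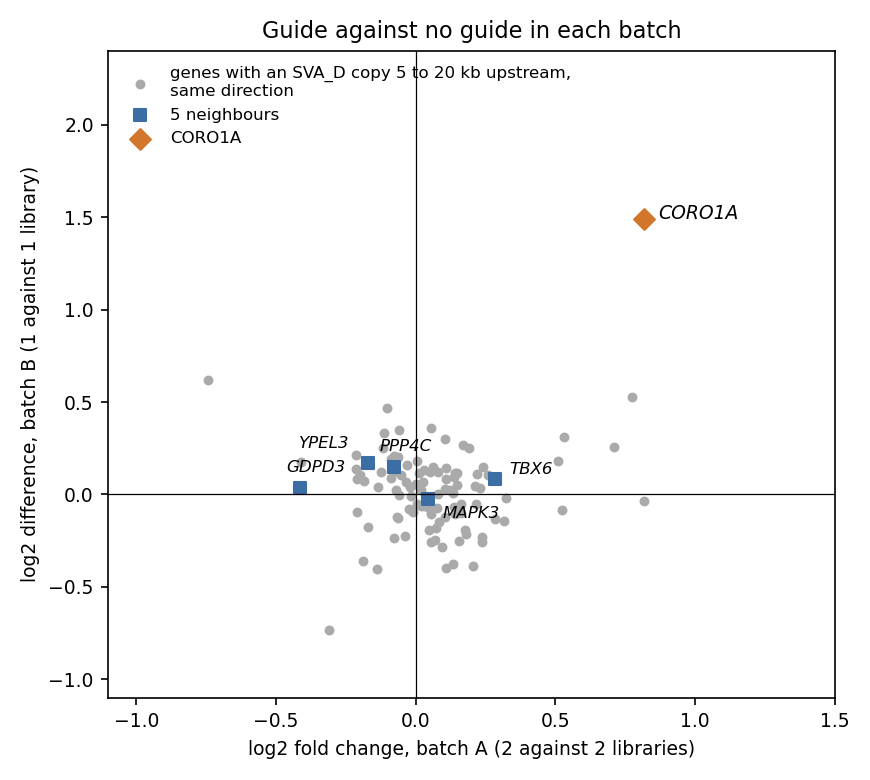
Guide over no guide as a log2 value in batch A (x axis) and batch B (y axis) for CORO1A (diamond), its 5 neighbours (squares) and the genes with an SVA_D copy 5 to 20 kb upstream in the same direction (grey points). CORO1A, which was chosen from the guide contrast, sits at 0.82 and 1.49. The neighbours lie between -0.41 and 0.28 in batch A and between -0.026 and 0.17 in batch B.

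Coronins share a WD-repeat domain that binds actin. Of the 6 other coronin genes 5 were tested, with 2 above 0, 3 below, a median of -0.0047 and 0 passing (edgeR, background 0.0%). CORO1C, a widely expressed coronin, averaged 156 ± 11.2 CPM in guide libraries and 169.8 ± 1.93 CPM in the others (SD, n = 3), and its log2 fold change was -0.12 ± 0.11 (SE). CORO6 was at 7.54 ± 5.49 and 5.36 ± 2.44 CPM, with 0.49 ± 0.56 (SE). The 7 tested subunits of the Arp2/3 complex, which branches actin filaments, had a median of -0.052 with 2 above 0 and 0 passing. ACTR3 had -0.11 ± 0.10 and ARPC3 -0.13 ± 0.13 (SE).

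The partners of the neighbours were read in the same way. All 10 genes of the RAF, MEK and ERK module were tested, with a median of 0.035, 6 above 0 and 0 passing. PEBP1, which encodes an inhibitor of this relay, had -0.10 ± 0.14 (SE). Of 12 tested genes induced by ERK signalling 6 were above 0 and 0 passed, and their median was -0.0089. Among them SPRED1, another inhibitor, had -0.16 ± 0.16 and the transcription factor gene ETV5 0.62 ± 0.77 (SE).

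The 8 genes of the protein phosphatase 4 complex had a median of -0.042, with PPP4R1, a regulatory subunit, at 0.11 ± 0.17 and IGBP1 at -0.13 ± 0.25 (SE). The 4 tested yippee-like genes had a median of -0.0043, with YPEL5 at -0.13 ± 0.14 and YPEL2 at 0.087 ± 0.31 (SE). The 5 tested glycerophosphodiester phosphodiesterases had a median of -0.041, with GPCPD1 at 0.089 ± 0.27 (SE) next to GDPD3. The 10 tested T-box genes had a median of 0.026, with TBX2 at 0.26 ± 0.24 and TBX19 at 0.25 ± 0.30 (SE). No member of these 4 lists passed.

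Over the 6 libraries, the genes whose log2 CPM followed CORO1A most closely were GRHL1 (Pearson r = 0.998), CCDC78 (0.993), NR4A2 (0.982), KLHL26 (0.979) and NAV1 (0.978), out of 7054 compared. These are correlations over 6 points that share batch and group, and they are given as a description. The log2 fold changes of these 5 genes ran from 0.23 to 0.33 and none passed. GRHL1, a transcription factor gene, was at 8.96, 10.3 and 13.8 CPM with the guide and 7.39, 8.80 and 10.02 CPM without it. Among the neighbours the correlation with CORO1A was 0.73 for TBX6, 0.67 for MAPK3, 0.62 for YPEL3, 0.53 for GDPD3 and 0.40 for PPP4C.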

How the data were processed

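Total RNA of 6 HEK293T libraries was sequenced as read pairs. FastQC 0.11.8, STAR 2.7.0e and featureCounts 2.0.0 are named, per the submitters' processing notes. The authors deposited raw counts: per the file headers, gene counts cover whole gene bodies of Ensembl protein-coding genes on GRCh38, without strand and without pairs that align to several places, and SVA_D copy counts include such pairs at each place. Genes were tested with edgeR 4.0.16 in R 4.3.3 (quasi-likelihood test, group only, filterByExpr minimum count of 10, TMM library sizes, Benjamini-Hochberg adjustment, threshold 0.05). The SE given with an edgeR log2 fold change was derived from the test, as its absolute value over the square root of the F statistic. Copies used the library sizes of the gene table. Alternatives used DESeq2 1.42.0, limma 3.58.1 (voom), other scalings and filters, and libraries left out. The procedure was tested on simulated data without a batch difference, a setting unlike these libraries, so no conclusion is drawn from it. Log2 CPM used a prior count of 2.

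Libraries with the same replicate number deviated together from their group means (correlations over genes of 0.51, 0.60 and 0.84 for replicates 1, 2 and 3). Guide replicate 1 correlated slightly more with no-guide replicate 2 (0.57), so within batch A the numbers are no clear pairing.

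The members and lists were chosen with earlier results of these data known. Named genes are the 6 members, the 5 smallest p-values on each side within 500 kb, the 2 smallest of each list and the 5 genes most correlated with CORO1A (mean of at least 1 CPM, log2 range of at least 0.5). MVP, BOLA2B, SLX1A, ALDOA, OR6J1, ACE and the genes named for an upstream copy were added after their values were seen. A list gene that this rule names is not reported here. Tables of repeat subfamilies were not used here. Promoter sequences were matched by symbol for 5 of 6 members (RefSeq).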

Additional observations from a re-analysis of the deposited data

How the results depend on the processing

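The log2 fold change of CORO1A was above 0 in all 16 alternatives, and leaving out 1 library at a time gave 0.46 to 1.53. These alternatives reuse the libraries from which CORO1A was chosen, so the shared sign is no independent support. No gene passed in any alternative with a test. The median of the 5 neighbours was 0.0038, took the other sign in 7 of 16 alternatives, and ran from -0.20 to 0.19 with 1 library left out. Over the same left-out libraries MAPK3 ran from -0.20 to 0.26, GDPD3 from -0.62 to -0.033, YPEL3 from -0.37 to 0.19, TBX6 from -0.18 to 0.69 and PPP4C from -0.064 to 0.081. Signs also turned in batch B alone for MAPK3 (-0.026), GDPD3 (0.033) and YPEL3 (0.17), and without TMM for YPEL3 (0.036). PPP4C turned in batch A alone (-0.079), with limma-voom (-0.0011) and without a count filter (-0.00098). The median of the 37 genes within 500 kb was 0.14 in batch B alone and ran from -0.027 to 0.11 with 1 library left out. The summed difference of the 5 neighbours, 1.68 CPM, ran from -30.4 to 22.5 CPM. With a minimum count of 30, 20 copies were left to test and 0 were called, in place of 11 of 63. With 1 library left out, 9 to 13 copies were called, of 72 to 78 tested. The copy beside CORO1A failed the count filter, so DESeq2, limma-voom, the stricter filter, the replicate block and the batch term gave no value for it. The cause of these shifts was not tested.

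With the replicate number as a block, CORO1A was at 1.13 and PPP4C turned to -0.00082, and no call on a gene changed.

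Depth limits CORO1A, GDPD3, TBX6 and the copy most, since each had fewer than 100 counts in most libraries.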
